A study of Homo sapiens with 4 samples.

Results

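Of 29025 distal intervals of H3.3 occupancy called 3 h after UV-C irradiation, 5153 had no counterpart within 2 kb in unirradiated cells, and these 5153 regions are described here. They were chosen from the 77173 distinct intervals called after UV (165979 in both lists together) on chromosomes 1 to 22 and X. An interval was kept if its distance to the nearest transcription start site (TSS) was over 5 kb and at most 50 kb, and if no interval called without UV lay within 2 kb. H3.3 was immunoprecipitated from wild-type human fetal lung fibroblasts immortalized with SV40, an established cell line (titled MRC5_WT in the labels of both groups, and MRC5_VA in the methods). One group was left unirradiated, and the other received 10 J/m2 UV-C and was harvested after 3 h. The DNA of 3 replicates was pooled before sequencing in each group, which left a single sequenced H3.3 sample for each condition (1 library), and differences between conditions could be neither checked in replicates nor tested. Intervals given with percentages and medians below are 95% intervals for counting error only.

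H3.3 is the histone H3 variant that is deposited outside of DNA replication, by the chaperone HIRA at active genes and regulatory elements and by the ATRX-DAXX complex at repeated sequence and heterochromatin. Regions far from a TSS that carry H3.3 are often enhancers, where nucleosomes turn over fast and transcription factors such as AP-1 (FOS and JUN dimers) bind. UV-C makes bulky lesions between neighbouring pyrimidines that stall RNA polymerase II and are removed by nucleotide excision repair, and histones are exchanged at these sites during repair.

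Presence after UV and absence without UV chose the members, so neither is a result. Of all UV intervals, at any distance from a TSS, 16.7% met the same criterion of no counterpart within 2 kb, against 17.8% (17.3% to 18.2%) of the distal ones. A region that is missing from a list lay below the limit of the peak caller in that library, which does not mean that H3.3 was absent. The depth of the libraries is unknown from the lists, and a region near the limit can be listed in one library and missed in the other. The set built in the reverse direction, of distal intervals called without UV and with none within 2 kb after UV, held 10764 of 36915 regions and serves below for comparison. The ratio of regions found only after UV to those found only without UV was 0.479 (0.463 to 0.495). The lists differ in length (77173 and 88806 intervals), and with equal numbers of intervals the ratio was 0.759.

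The members differed in whether their sequence is repeated in the genome, and the examples shown are all without a repeated word at the summit. A repeated word is a run of 24 bases found at least 10 times on chromosome 22. Below, on repeats and off (or outside of) repeats mean with and without such a word at the summit. No repeat annotation was used, so a repeat without such a word counts as off repeats. Each stretch is 121 bases of hg38 centred on the summit, plus strand, 5′ to 3′. They are the strongest member next to *MED28* and the one next to *TMEM104*, both among the 3 strongest of all, and the strongest next to *COL5A1*, the gene with the most members. None held a GC box (GGGCGG on either strand), so they have no capitals.
MED28, chr4:17636419-17636539: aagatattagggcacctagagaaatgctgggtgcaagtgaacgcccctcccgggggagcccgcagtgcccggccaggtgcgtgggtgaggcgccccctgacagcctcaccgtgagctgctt
TMEM104, chr17:74843394-74843514: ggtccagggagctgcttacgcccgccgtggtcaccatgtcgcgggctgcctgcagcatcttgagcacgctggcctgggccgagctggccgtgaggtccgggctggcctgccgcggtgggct
COL5A1, chr9:134620437-134620557: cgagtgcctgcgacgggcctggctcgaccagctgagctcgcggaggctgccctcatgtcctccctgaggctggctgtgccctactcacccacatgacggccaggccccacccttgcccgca
The stretches next to *MED28*, *TMEM104* and *COL5A1* held no such repeated word and had a GC content of 65.3%, 72.7% and 70.3%.

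A further pair of stretches carries the AP-1 motif (TGACTCA on either strand) in capitals. They are the strongest such members without a repeated word at the summit next to protein-coding genes with at least 3 members.
RIN3, chr14:92600566-92600686: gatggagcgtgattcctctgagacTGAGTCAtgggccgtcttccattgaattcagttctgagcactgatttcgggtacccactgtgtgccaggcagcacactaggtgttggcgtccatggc
GTF2IRD1, chr7:74462778-74462898: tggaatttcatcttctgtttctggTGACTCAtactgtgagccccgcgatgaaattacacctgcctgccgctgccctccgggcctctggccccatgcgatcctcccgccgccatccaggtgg
The *RIN3* and *GTF2IRD1* stretches held no word of 24 bases that occurs on chromosome 22.

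Repeated sequence at the summit was the feature that most members shared. A word of 24 bases that occurs at least 10 times on chromosome 22 lay within 100 bp of the summit of 3622 members, which is 70.3% (69.0% to 71.5%). In windows of the same length 1 kb to either side of the summit, the share was 27.5% (26.7% to 28.4%). A 16-base word of *RN7SL1*, a gene for 7SL RNA, from which Alu elements descend, lay at 36.1% (34.8% to 37.4%) of member summits and in 9.0% (8.42% to 9.53%) of the flanking windows. The same held for the other distal regions. The share of summits with a repeated word was 73.7% (73.1% to 74.3%) in the 23872 distal UV intervals that had a counterpart without UV, and 71.9% (71.0% to 72.7%) in the regions found only without UV. How reads with several equally good places in the genome were treated is not given in the sources used here, and the part of such reads in these regions was not tested.

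The share of repeats at the summit varied with the strength of the interval. The −log10 q of an interval is the authors' measure of its strength within its own library. It was 64.8% (60.3% to 69.1%) in members with a −log10 q under 2. Among members with a −log10 q of 3 to 5, 74.4% (72.4% to 76.3%) had a repeated word at the summit, against 39.3% (32.5% to 46.4%) of the 201 members with a −log10 q of 10 or more. In UV intervals with a counterpart the share was 70.5% (69.4% to 71.6%) at a −log10 q of 3 to 5 and 78.4% (77.3% to 79.5%) at 10 or more. Regions found only without UV reached 91.2% (85.9% to 95%) at 10 or more, over 171 intervals. Most members in the highest class thus lay outside of repeats, and most regions of the other sets in that class within them, as the plot of repeats by strength shows.

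**Figure D1:**
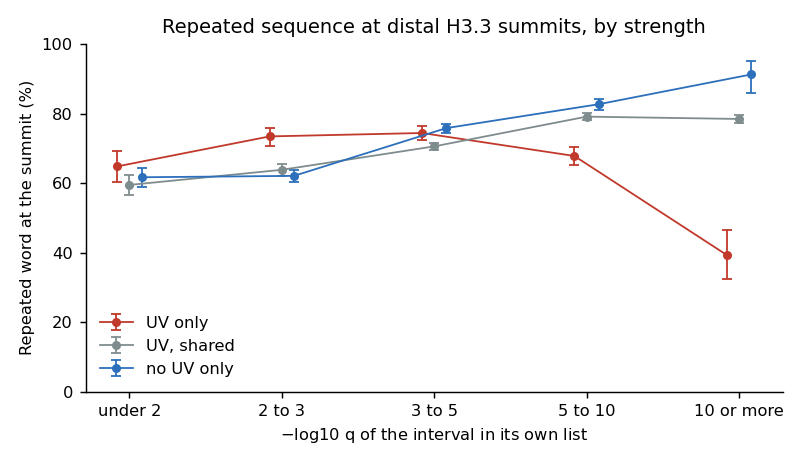
Share of distal H3.3 intervals with a repeated 24-base word within 100 bp of the summit (y axis, %), by the −log10 q of the interval in its own list (x axis), for regions found only after UV, UV intervals with a no-UV interval within 2 kb, and regions found only without UV. Points are shares and bars are exact 95% intervals. At a −log10 q of 10 or more the members sit at 39.3%, below 78.4% and 91.2% in the other sets.

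Members outside of repeats were richer in GC than the reverse set. Their median GC content was 56.0% (55% to 56.9%, n = 1531), with quartiles of 44.8% and 63.4%. Regions found only without UV and without a repeated word had a median of 42.3% (42% to 42.6%, n = 3028), and the UV intervals with a counterpart 50.6% (50.1% to 51.1%, n = 6275). On repeats the medians lay closer together, at 49.3% (49.2% to 49.5%) in members, 48.4% (48.3% to 48.5%) in regions found only without UV and 48.4% (48.3% to 48.4%) in UV intervals with a counterpart. Over all members the median was 49.8% (49.7% to 50%), against 47.4% (47.3% to 47.5%) in the reverse set. The whole lists differed in the same direction, with medians of 50.8% in all UV intervals and 49.2% in all intervals without UV. With 1 library each, a difference in the base composition of the libraries and a difference in the cells cannot be told apart.

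**Figure D2:**
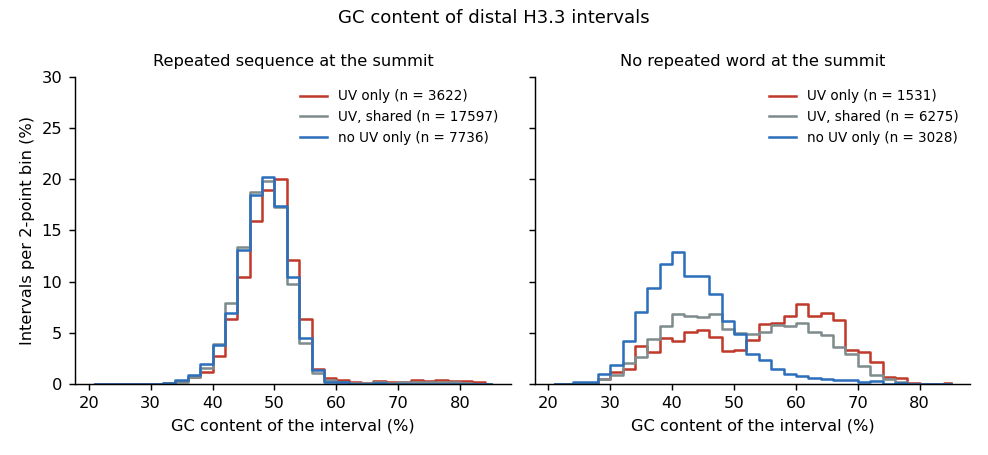
GC content of distal H3.3 intervals (x axis, %) as the percentage of intervals in each 2-point bin (y axis), with a repeated word at the summit (left) and without one (right), for regions found only after UV, UV intervals with a counterpart, and regions found only without UV. On the left the medians are close, at 49.3%, 48.4% and 48.4%, and on the right members have a median of 56.0% and regions found only without UV 42.3%.

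Outside of repeats, GC content also varied with strength. Members without a repeated word had a median GC content of 45.9% (44.3% to 49.6%) at a −log10 q under 2, 51.5% (49.2% to 53.3%) at 3 to 5, and 63.0% (60.8% to 65.4%) at 10 or more. UV intervals with a counterpart and without a repeated word showed the same order, with 44.9% (44.2% to 45.8%) at the low end and 61.9% (61.3% to 62.6%) at the high end. In the reverse set the median was 41.7% (41.1% to 42.6%) under 2 and 43.9% (42.4% to 44.8%) at 5 to 10. It was 43.8% (40.8% to 58.7%) at 10 or more, over 15 intervals. Read the other way, among distal UV intervals without a repeated word, 24% (22.7% to 25.4%) of those in the highest of 5 classes of GC content (52.4% and above) were members, against 16.3% (14.7% to 17.9%) in the lowest class. For intervals called without UV, the share found in that list only was 11.6% (10.4% to 12.9%) in the highest class and 39.3% (37.8% to 40.7%) in the lowest.

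The share of unmatched intervals varied less with the distance to a TSS after UV than without UV. The share of UV intervals with no counterpart was 15.3% (14.8% to 15.7%) within 1 kb of a TSS, 17.1% (16.4% to 17.7%) at 5 to 10 kb, 18.1% (17.4% to 18.9%) at 10 to 20 kb and 18.5% (17.6% to 19.4%) at 20 to 50 kb. In the list without UV the corresponding shares were 11.6% (11.2% to 12%), 27.0% (26.3% to 27.7%), 29.6% (28.8% to 30.4%) and 32.1% (31.2% to 33.1%). At 1 to 5 kb the shares were 16.4% (15.9% to 16.8%) after UV and 22.8% (22.3% to 23.4%) without. The UV list held the larger share of unmatched intervals within 1 kb of a TSS, and the list without UV in every class beyond. Members lay at a median of 11715 bp from the nearest TSS (11391 to 12005 bp), with quartiles of 7587 and 19788 bp.

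**Figure D3:**
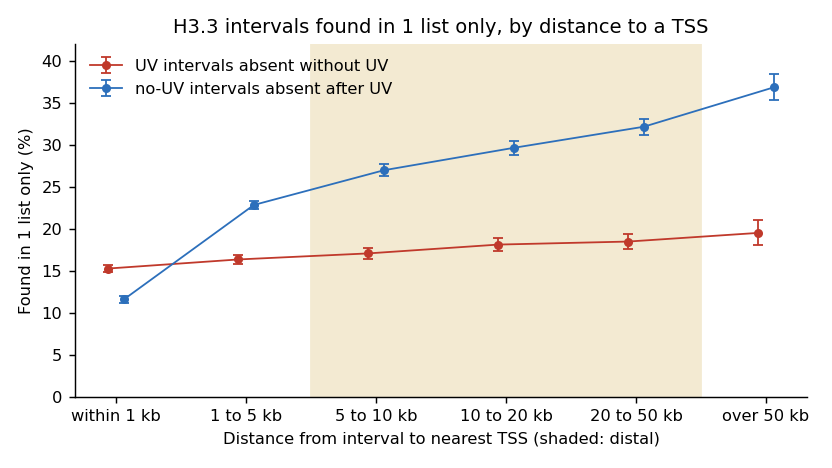
Share of H3.3 intervals found in 1 list only (y axis, %) by the distance of the interval to the nearest TSS (x axis), for intervals called after UV and intervals called without UV. Points are shares, bars are exact 95% intervals and the shaded classes are the distal ones. The UV shares run from 15.3% within 1 kb to 19.5% over 50 kb, and the shares without UV from 11.6% to 36.8%.

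The edges of the rule separated regions of like strength. There were 417 members with a gap of 2 to 2.5 kb to the nearest interval without UV (median −log10 q 3.99), and 579 distal UV intervals with a gap of 1.5 to 2 kb were left out (3.91). Unmatched UV intervals numbered 313 at 5 to 5.5 kb from a TSS (3.97) and 318 at 4.5 to 5 kb (4.05), and 106 at 45 to 50 kb (3.91) and 72 at 50 to 55 kb (3.70). Most of the distal UV intervals, 65.1%, overlapped an interval called without UV, and 17.2% had one within 2 kb. The median gap of members to the nearest interval without UV was 7961 bp (7618 to 8330 bp), and 208 members had none within 100 kb.

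Members lay mostly in introns. Of the 5153, 3517 (68.3%, 67.0% to 69.5%) touched a gene without touching an exon, 1264 (24.5%, 23.4% to 25.7%) lay between genes and 372 (7.22%, 6.53% to 7.96%) touched an exon. The UV intervals with a counterpart were intronic in 64.9% (64.3% to 65.5%) and intergenic in 28.6% (28.0% to 29.1%) of cases. Regions found only without UV were intronic in 71.7% (70.8% to 72.5%) and exonic in 5.02% (4.61% to 5.45%). The place of a member went with its sequence, since 75.3% (73.9% to 76.7%) of those on repeats were intronic and 3.53% (2.96% to 4.19%) exonic, against 51.5% (49.0% to 54.1%) and 15.9% (14.1% to 17.9%) of those off repeats. Off repeats, UV intervals with a counterpart were intronic in 54.2% (53% to 55.5%), so the order of members and these intervals was the other way round there than over all. Off repeats, the reverse set was exonic in 6.70% (5.84% to 7.65%). Of the 3889 members inside a gene, 90.2% lay in a protein-coding gene, and for 66.6% the host gene also had the nearest TSS. These shares were 87.5% and 66.8% for UV intervals with a counterpart, and 88.5% and 66.7% for the reverse set. The median length of the longest host gene was 119 kb (116 to 123 kb) for members. It was 112.5 kb (109.7 to 114.7 kb) for UV intervals with a counterpart and 131 kb (128 to 134 kb) for the reverse set.

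The members were narrow and weak for their list. The median width was 350 bp (347 to 353 bp), against 455 bp (452 to 459 bp) for UV intervals with a counterpart, and 1.49% (1.18% to 1.86%) of members had several summits against 10.3% (9.91% to 10.7%). The smallest width was set by the peak caller at 294 bp in the UV list, and 20.5% (19.4% to 21.7%) of members had exactly that width. The regions found only without UV had a median width of 353 bp (350 to 356 bp), so that narrow intervals were common to unmatched regions of both lists. The median −log10 q of members was 3.89 (3.83 to 3.91) and their median fold enrichment over the local background 4.07, against 5.64 (5.58 to 5.71) and 4.75 for UV intervals with a counterpart. The share of distal UV intervals that were members was 28.9% (26.7% to 31.1%) at a −log10 q under 2 and 3.41% (2.96% to 3.91%) at 10 or more.

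The 10 strongest members had a −log10 q between 22.8 and 41.5. The first, chr4:17636135-17636895, overlapped an exon of *FAM184B* 5211 bp from the TSS of *MED28*, a subunit of the Mediator complex that links transcription factors to RNA polymerase II, with a 11.3-fold enrichment and a GC content of 58.3%. The second, chr9:121970772-121971310, lay in an intron of *TTLL11*, a tubulin polyglutamylase, with a 14.3-fold enrichment (−log10 q 34.3). The nearest interval without UV was 4997 bp from the first and 6105 bp from the second. The third, chr17:74842710-74843700, touched an exon of *GRIN2C*, an NMDA receptor subunit, 5611 bp from the TSS of *TMEM104* (−log10 q 25.1), and had a GC content of 74.4%.

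Of the 10, 4 had a summit with repeated words, and the commonest word of each occurred at most 94 times on chromosome 22. They were nearest to *TTLL11*, *TMEM239*, the lncRNA ENSG00000275576 (within *TM9SF4*) and *NCOA3*, a coactivator of nuclear receptors. The last 3 lay on chromosome 20 and had a GC content of 79.7%, 77.9% and 76.0%, against 66.6% for the one next to *TTLL11*. All 4 had 7 GC boxes around the summit and no word of *RN7SL1*. Among shifts of 10 to 60 bases, the sequence around each of these summits matched itself best at 49 bases. The identity was 85.5%, 48.7%, 70.4% and 67.1%, in the order given. Whether the 4 share a repeat that carries these boxes was not tested. The other members of the 10 were nearest to *PMEPA1*, an inhibitor of TGF-beta signalling (chr20:57748685-57749388, 37149 bp from its TSS), *LINC02181*, the lncRNA ENSG00000235091 with *WNT7B* as the closest protein-coding gene, and the pseudogene *KMT2CP2*. The interval next to *PMEPA1* had no interval without UV within 48852 bp.

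For the AP-1 motif, the shares at member summits and beside them had overlapping intervals. It lay within 100 bp of the summit of 192 members (3.73%, 3.23% to 4.28%) and in 3.32% (2.98% to 3.68%) of the flanking windows. The share was 3.18% (2.97% to 3.41%) in UV intervals with a counterpart, 4.25% (3.88% to 4.65%) in regions found only without UV and 2.74% (2.62% to 2.85%) in all UV intervals. In their flanking windows it was, in that order, 4.64% (4.45% to 4.83%), 3.62% (3.38% to 3.88%) and 3.86% (3.77% to 3.96%). Off repeats, 5.16% (4.11% to 6.39%) of members, 5.16% (4.63% to 5.74%) of UV intervals with a counterpart and 6.80% (5.93% to 7.76%) of the reverse set held it. A match describes letters in the window and is not a bound site.

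The GC box, the motif of SP and KLF factors, was more frequent at summits than beside them in members and in the sets compared. It was also more frequent at member summits than at those of the reverse set. It lay at 712 member summits (13.8%, 12.9% to 14.8%), against 4.76% (4.36% to 5.19%) of flanking windows, 11.6% (11.2% to 12%) of UV intervals with a counterpart and 6.33% (5.87% to 6.80%) of regions found only without UV. All UV intervals, promoters included, held it in 22.1% (21.8% to 22.4%). The flanking windows held it in 4.93% (4.73% to 5.12%) for UV intervals with a counterpart and 2.75% (2.53% to 2.97%) for the reverse set. For all UV intervals the flanking share was 8.66% (8.52% to 8.80%). Off repeats the shares were 20.6% (18.6% to 22.8%) in members, 16.8% (15.9% to 17.8%) in UV intervals with a counterpart and 3.63% (3.00% to 4.36%) in the reverse set. The GC contents of these sets also differ. Within the highest class of GC content, 30.8% (28.6% to 33.1%) of members, 28.8% (27.6% to 30.1%) of UV intervals with a counterpart and 16.5% (14.6% to 18.5%) of the reverse set held a GC box. This class runs from 52.4% to 84.9%, and 719 of its 1626 members but 1094 of its 1401 reverse regions had a repeated word. The sets in it were thus not matched in GC content or repeats. In the class below it, the shares were 10.8% (9.06% to 12.8%), 9.86% (9.03% to 10.7%) and 7.84% (6.75% to 9.05%). In the 3 lowest of the 5 classes, members were not above either set beyond the intervals, and in the lowest 2 they were below UV intervals with a counterpart, with 1.4% (0.672% to 2.55%), 3.11% (2.02% to 4.55%) and 6.15% (4.65% to 7.95%). The reverse set had 1.55% (1.12% to 2.08%), 4.76% (3.91% to 5.74%) and 5.94% (4.99% to 7.01%) there, and UV intervals with a counterpart 3.25% (2.73% to 3.84%), 5.39% (4.76% to 6.07%) and 7.61% (6.87% to 8.39%).

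Over all members, the TEAD, RUNX and SRF motifs were less frequent at the summits than beside them, a comparison that was not made off repeats. The TEAD motif (CATTCC followed by A or T), bound by the partners of YAP, lay at 4.25% (3.72% to 4.84%) of summits and in 7.14% (6.65% to 7.66%) of flanking windows. The RUNX motif (TGTGGTT) lay at 1.63% (1.3% to 2.01%) and 3.75% (3.39% to 4.13%), and the CArG box of SRF at 0.388% (0.237% to 0.599%) and 1.05% (0.860% to 1.26%). UV intervals with a counterpart showed the same order for all 3. At member summits off repeats the shares were 7.45% (6.18% to 8.88%), 3.20% (2.38% to 4.21%) and 0.849% (0.453% to 1.45%). These intervals include the flanking shares of all members. The flanking windows were not divided by repeats, so these values do not compare summits and flanks off repeats. A p53 half-site was present at 3.88% (3.37% to 4.44%) of summits and in 4.86% (4.45% to 5.29%) of flanking windows. The CTCF motif lay at 0.213% (0.107% to 0.382%) of summits, or 11 members, and in 0.0388% (0.0106% to 0.0993%) of flanking windows. The remaining motifs (CRE, C/EBP, ETS, NF-kB and NFI) each lay at no more than 0.640% of member summits, and NFI at none of 5153, which allows up to 0.0716%.

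Members were spread over 3945 genes by nearest TSS, which is 6.36% of 62062 genes, and 249 genes (0.401%) had 3 or more. Of the protein-coding genes, 11.4% had at least 1 and 205 (1.03%) had 3 or more. There were 3099 genes with 1 member and 597 with 2, and the 249 genes held 866 members. Protein-coding genes with 3 or more members were long, with a median of 131 kb (114 to 152 kb) against 72.7 kb (68.0 to 77.3 kb) for those with 1 or 2 and 24 kb (23.3 to 24.6 kb) for those with none. Regions found only without UV gave 910 genes with 3 or more. Of the 249 genes, 183 had more members than regions found only without UV, 45 had fewer, and 83 had none of the latter. An excess of members follows from the choice of these genes by their members. Of the 910 genes chosen by the reverse set, 879 had more reverse regions than members, 10 had fewer, and 514 had no member.

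**Figure D4:**
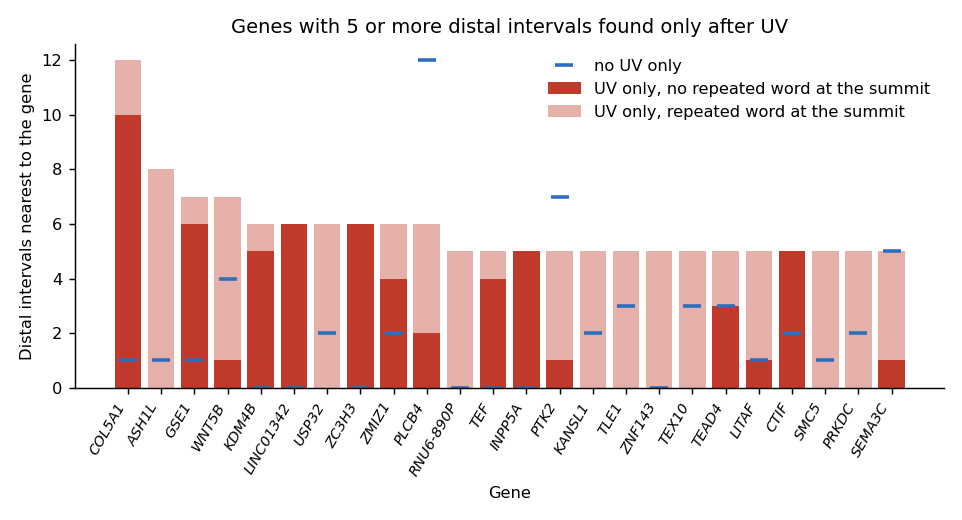
Number of distal intervals (y axis) nearest to each of the 24 genes with 5 or more members (x axis). Bars count regions found only after UV, divided by whether the summit holds a repeated word, and blue dashes count regions found only without UV. *COL5A1* stands first with 12, of which 10 are off repeats, and the 8 next to *ASH1L* are all on repeats.

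Genes differed in how many of their members lay on repeats. In 117 of the 249 genes every member had a repeated word at its summit, and in 30 none had. Counting only members without a repeated word left 40 genes with 3 or more. *COL5A1* had 10 such members, *LINC01342*, *ZC3H3* and *GSE1* had 6 each, and *KDM4B*, *INPP5A* and *CTIF* had 5 each. The genes *ASH1L*, *USP32*, *KANSL1*, *TLE1*, *ZNF143*, *TEX10*, *SMC5* and *PRKDC*, with 5 to 8 members each, had none.

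*COL5A1*, which encodes the alpha 1 chain of type V collagen, a regulator of collagen fibril diameter in fibroblasts, had 12 members on chromosome 9, and 43 distal UV intervals with a counterpart and 1 region found only without UV were also nearest to it. Members thus made up 21.8% (11.8% to 35.0%) of its 55 distal UV intervals, near the 17.8% over all genes. The first had its summit at -21306 bp from the start of the gene (chr9:134620317-134620649) and was the strongest, with a −log10 q of 13.9 and a 4.77-fold enrichment. The other 11 lay inside the gene in 3 groups, at chr9:134692767-134694483 (3 intervals), chr9:134717099-134724864 (5) and chr9:134795672-134797966 (3). Their −log10 q ran from 1.36 to 8.86, on both sides of the median of all members (3.89). Their fold enrichment ran from 2.21 to 4.33 and was mostly below that of all members (median 4.07). The GC content was 49.7% to 65.8% over the 12, with a median of 61.5%, and the nearest interval without UV was 2253 to 13243 bp away. None held an AP-1 motif near the summit.

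**Figure D5:**
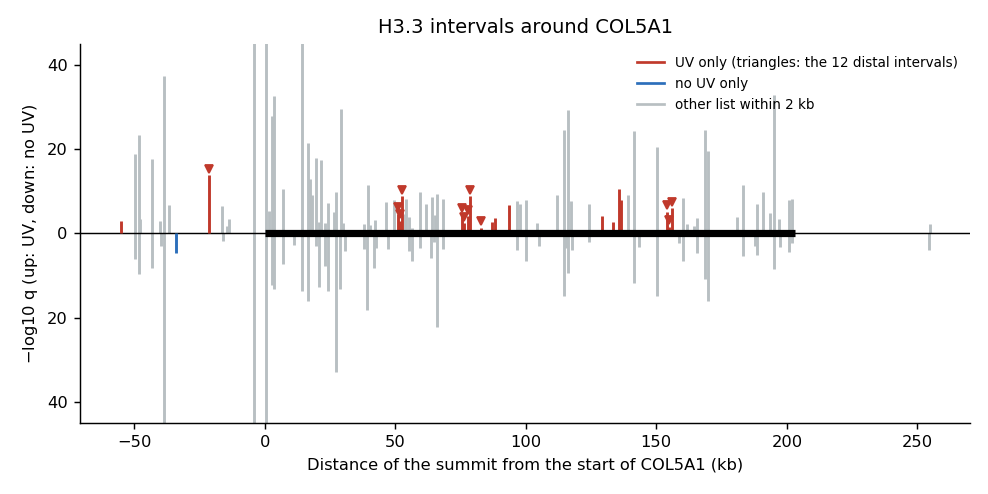
H3.3 intervals around *COL5A1*, plotted by the distance of the summit from the start of the gene (x axis, kb) and by −log10 q (y axis), upward for the UV list and downward for the list without UV. The black bar is the gene, red lines are UV intervals with no counterpart within 2 kb (triangles mark the 12 distal ones nearest to the gene), the blue line is found only without UV, grey lines have a counterpart, and 6 lines run beyond the axis.

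Inside the body of *COL5A1*, at any distance from its internal TSSs, 18 UV intervals had no counterpart and 61 had one, and 49 intervals were called without UV, none of which was without a counterpart. The gene had an interval within 1 kb of a TSS in both lists.

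The other 11 protein-coding genes with the most members had 5 to 8, and the share of members among their distal UV intervals ran from 11.5% (6 of 52, *PLCB4*) to 80% (8 of 10, *ASH1L*). *ASH1L*, a methyltransferase of histone H3 lysine 36, had 8, all inside the gene and on repeats, the strongest with a −log10 q of 5.64. *GSE1*, a component of a histone deacetylase complex, had 7, all inside its 507 kb, with a median GC content of 62.9%. *WNT5B*, a ligand of non-canonical WNT signalling, also had 7, of which 6 were on repeats, beside 4 regions found only without UV. *KDM4B*, a demethylase of histone H3 lysine 9, had 6 with a median GC content of 66.5%, the strongest at a −log10 q of 15.8, and no region found only without UV. *USP32*, a ubiquitin protease, had 6 on repeats, and *ZMIZ1*, a coactivator related to PIAS proteins, had 6 with a median GC content of 61.8%.

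*ZC3H3*, a zinc finger protein of mRNA export, had 6 with a median GC content of 66.1% and a TSS interval in the UV list only. *PLCB4*, a phospholipase C, had 6 members but 12 regions found only without UV and 46 UV intervals with a counterpart. *TEF*, a PAR bZIP transcription factor, had 5, none inside the gene, and its strongest member overlapped an exon of *ZC3H7B*. *INPP5A*, an inositol phosphatase, had 5 off repeats and a TSS interval in neither list. *PTK2*, which encodes focal adhesion kinase, had 5 members against 7 regions found only without UV. For *PLCB4* and *PTK2* the regions found only without UV were the more numerous.

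Lists of DNA damage and stress response genes had members in shares whose intervals include the 11.4% of all protein-coding genes. None of the AP-1 factors had more than 1, and *FOSL2*, *FOSB* and *BATF3* (3 of 13 genes, 23.1%, 5.04% to 53.8%) had 1 each, all on repeats. The member next to *FOSB* lay in an intron of *ERCC1*. Of 22 immediate early genes, *NR4A2*, a nuclear receptor induced by stress, had 1, on repeats and 26200 bp from its TSS (−log10 q 5.10, GC content 83.3%). Of 24 regulators of stress kinases, 5 had a member, among them *DUSP10* with 2 and *DUSP8* with 1, which are phosphatases of JNK and p38, *MAPK8*, which is JNK1, and *MAP2K3*. In that list 9 genes (37.5%, against 17.5% of protein-coding genes) had a region found only without UV. There were 19 such regions against 6 members, and *MAPK8* had 6 of the 19. Of 24 p53 targets, *PPM1D*, the phosphatase that reverses p53 signalling, had 3 and *TIGAR* and *SESN2* had 1 each. Regions found only without UV were nearest to 2 of the AP-1 factors, 3 of the immediate early genes and 2 of the p53 targets.

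Of 31 genes of nucleotide excision repair, 4 (12.9%, 3.63% to 29.8%, against 11.4% of protein-coding genes) had 1 member each. A region found only without UV was nearest to 8 (25.8%, against 17.5%), with 14 such regions in all. The genes with a member were *GTF2H3*, a TFIIH subunit, *CETN2*, which binds XPC, *ERCC6*, which recognises stalled RNA polymerase II, and *CUL4A*, the scaffold of the ubiquitin ligase that senses UV damage. All of these members except the 1 next to *CETN2* were on repeats. *ERCC6* had a TSS interval in the UV list only, and 1 region found only without UV. Of 23 genes of NF-kB and inflammation, *NFKBIZ* and *IL1A* had 1 each, and 1 gene had a region found only without UV. None of 12 genes for H3.3 and its chaperones had a member, which allows up to 26.5%, and 3 had a region found only without UV.

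Extracellular matrix genes held the most members of any list. Of 40, 10 had at least 1 (25%, 12.7% to 41.2%, against 11.4% of protein-coding genes), with 30 members in all, 12 of them next to *COL5A1*. *COL4A2*, a basement membrane collagen, had 4, with the strongest at a −log10 q of 11.3 (chr13:110320014-110320490), *COL5A2*, the partner chain of *COL5A1*, had 3, and *COL8A1* had 2. The matrix genes are long, with a median of 66.9 kb against 27.5 kb for protein-coding genes, and 15 of them (37.5%) had a region found only without UV, against 17.5% of protein-coding genes. Both shares were above those of all protein-coding genes, in a list of longer genes.

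Of 35 genes of TGF-beta, YAP and actin, 6 had a member (17.1%, 6.56% to 33.7%, against 11.4% of protein-coding genes). A region found only without UV was nearest to 14 (40%, against 17.5% of protein-coding genes). The median length of these genes was 39.5 kb, against 27.5 kb for protein-coding genes. *SKI*, a repressor of SMAD factors, *VCL*, which encodes vinculin, and *CALD1*, an actin-binding protein, had 3 members each, and *YAP1* had 2. *SKI* had no region found only without UV, and *CALD1* had 10. Of 28 mesenchyme factors (median length 43.7 kb), 4 had a member (14.3%, 4.03% to 32.7%, against 11.4% of protein-coding genes). A region found only without UV was nearest to 11 (39.3%, against 17.5%), with 20 such regions against 5 members. Of these factors, *SNAI1*, *RUNX1* and *RUNX2* had 1 member each. *SNAI1*, a repressor of E-cadherin, had its member 26789 bp from the TSS (−log10 q 7.92) and a TSS interval in the UV list only, and 1 region found only without UV.

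The labelled cell type was checked against markers at TSSs. Of 10 fibroblast markers, 7 after UV and 6 without had an H3.3 interval within 1 kb of a TSS, among them *COL1A1*, *COL1A2* and *VIM* in both, and *COL3A1*, *THY1* and *TBX4* had none in either list. An interval was present at 2 of 6 epithelial markers in both lists (*CDH1* and *ELF3*), at none of 5 endothelial markers, at none of 5 blood markers after UV and 1 without, and at 2 of 4 neuron markers after UV and 1 without. No fibroblast, epithelial, blood or neuron marker had a member nearby, and of the endothelial markers *PECAM1* had 1.

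The genes nearest to members often had a TSS interval of their own. For 50.3% (48.9% to 51.7%) of members a nearest gene had an interval within 1 kb of a TSS in both lists (55.2% for UV intervals with a counterpart), for 7.55% (6.84% to 8.30%) in the UV list only, for 4.19% (3.66% to 4.78%) in the list without UV only, and for 38.0% (36.6% to 39.3%) in neither. In the reverse set these shares were 49.5%, 6.56%, 4.75% and 39.1%. As TSS intervals come from the same lists as the members, these values are a description.

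Across chromosomes, the share of distal UV intervals that were members ran from 13.4% (11.7% to 15.3%) on chromosome 19 to 25.5% (21.8% to 29.5%) on chromosome X, and the share of regions found only without UV from 15.9% (14.1% to 17.9%) on chromosome 19 to 37.9% (34.3% to 41.6%) on chromosome 13. Chromosome 19 had the lowest share in both lists.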

How the data were processed

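According to the methods, the authors used Trimmomatic for trimming, BWA for alignment against hg38 and MACS for peaks, after duplicate removal. The submitters' processing notes give Trimmomatic 3.36, BWA 0.7.12 and MACS 1.4.2. The threshold and control for H3.3 peaks, and the treatment of reads with several places, are not given in the sources used here. The authors deposited 1 peak list per library, in which every peak has a score, a ratio or fold enrichment against its surroundings, and p and q on the −log10 scale. Values were used only within a list. The lists carry no read numbers, so depth is unknown. Input libraries were not analysed here.

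Of 89740 peaks after UV and 102949 without UV, 43 and 42 on other sequences were left out. A repeated interval was counted once, with its strongest summit. The authors' chromosome ends were checked against hg38. Distances, places and genes came from GENCODE release 44, and base composition from hg38. Motifs were searched on both strands in 201 bases around the summit and in equal windows centred 1 kb to either side. Repeated words (24 bases, at least 10 occurrences on both strands of chromosome 22) and 16-base words of *RN7SL1* were searched in the same windows. The procedures were tested on simulated intervals and bases.

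With 1 library per condition nothing was tested. Intervals of shares are exact (Clopper-Pearson), and medians have binomial order-statistic intervals. Named genes are the 12 protein-coding genes with the most members, the genes nearest to the 10 strongest members, and up to 4 genes of each of 15 lists. The other genes, among them those of the count without repeats and *RIN3* and *GTF2IRD1*, were chosen after their values were seen. Some sequences and a gene are not reported here. The members and lists were chosen with earlier results of these data known. Scripts ran in Python 3.11.15 with scipy 1.17.1 for intervals, pandas 2.3.3 and numpy 2.4.6 for tables, and matplotlib 3.10.9 for figures.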

Additional observations from a re-analysis of the deposited data

How the results depend on the processing

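Alternatives were run for 8 values: the number, share and ratio of members, their intron share, GC content, width and AP-1 share, and the genes with 3 or more. The ratio to the reverse set stayed below 1 in every setting. Leaving out repeated words reversed the order of members and UV intervals with a counterpart for the intron share, as given below. The AP-1 shares of these 2 sets were then alike. Other results, among them those on the GC box, TSS distance, strength and gene lists, had no alternative. Where only an interval that overlaps by 1 bp counted as a counterpart, there were 10141 members (34.9% of distal UV intervals), a ratio to the reverse set of 0.552, a median width of 358 bp and 767 genes with 3 or more. A gap of 5 kb gave 11.9%, a ratio of 0.447, 66.5% in introns and 100 genes. With a −log10 q of at least 5 asked of the interval itself, 1464 members were left (9.99%), with a ratio of 0.625, 63.9% in introns, a GC content of 51.8%, a width of 368 bp, AP-1 in 2.66% and 21 genes. With that limit in both lists the share was 24.1%, the ratio 0.708, introns 65.3%, GC content 50.4%, width 402 bp, AP-1 3.01% and genes 114. Equal numbers of intervals in both lists gave 21.3% and a ratio of 0.759, and counting every listed peak gave 16.3%. Protein-coding TSSs alone gave a ratio of 0.509, a GC content of 50.3% and 422 genes, and assigning a member to every gene with a TSS within 50 kb gave 1025. The place of the strongest summit gave 70.4% in introns. A narrower window around the summit gave AP-1 in 1.53% and a wider one in 11.9%. Leaving out intervals with a repeated word at the summit, an alternative chosen after seeing the data, gave 1531 members (19.6%), a ratio of 0.506, 51.5% in introns (below the 54.2% of UV intervals with a counterpart, while over all intervals members were above them), a GC content of 56.0%, a width of 355 bp, AP-1 in 5.16% and 40 genes. The other 35 values moved by less than their counting error, or for counts by less than 1.5 times. Apart from what the settings themselves change, the cause was not tested. No paired analysis was possible because each condition has 1 H3.3 library, and no replicate could be left out.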
